A study of Homo sapiens with 4 samples.

Results

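The 74 genes described here encode proteins of the mitochondrial ribosome. They are all genes on the array whose single annotated symbol begins with MRPL, for the large subunit, or MRPS, for the small subunit, followed by a number. There were 47 MRPL and 27 MRPS genes among 17687 genes tested, each measured by 1 array feature. MRPL45, MRPL53 and MRPS6 were not analysed here. Expression was measured in NB4-R4 cells, derived as a clone from the NB4 line of acute promyelocytic leukaemia and resistant to all-trans retinoic acid. Cells were given either MK-8776, an inhibitor of the checkpoint kinase CHK1, at 4 µM or the vehicle DMSO, and live cells were collected at 96 h, with 2 arrays per group. All 4 arrays come from this 1 line. Arrays of a group are labelled biological replicates, with nothing on how their cultures differed. The p-values therefore measure only the scatter of these samples, which may be technical. Values are RMA expression on the log2 scale. A change is the mean of the MK-8776 arrays minus the mean of the DMSO arrays, so that -1 is a 2-fold lower level. Its standard error (SE), 95% interval and adjusted p come from a limma fit over all genes.

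Mitochondria keep a ribosome of their own, which translates the few proteins encoded by mitochondrial DNA, nearly all of them core subunits of the respiratory chain and the ATP synthase. Its RNAs are made in the mitochondrion, whereas its proteins are encoded in the nucleus, made in the cytosol and imported. Many descend from bacterial ribosomal proteins and the others were acquired in the mitochondrial lineage. The small subunit reads the messenger RNA and the large subunit joins the amino acids. The transcription factor MYC, which pairs with MAX to bind the DNA word CACGTG, called an E-box, is known for raising genes of ribosome production and of mitochondrial biogenesis.

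The labelled cell type was checked against marker genes. Of 6 marker genes of promyelocytes 4 were measured. MPO, the myeloperoxidase gene of promyelocytes, was high on all arrays, at 16.09 and 16.27 in DMSO and 14.81 and 15.36 in MK-8776. Its change was -1.095 (adjusted p = 0.0514, limma). Of 9 marker genes of other blood cells 7 were measured. CD34, HLA-DRA, MS4A1 and HBB lay between 2.61 and 4.78, around the lower quartile of all values (3.97). The largest change of these 4 was 0.775, for HBB (adjusted p = 0.0934, limma). EPX, the peroxidase gene of eosinophils, was well above the median of all values (5.77), at 8.43 and 8.54 in DMSO and 8.11 and 6.87 in MK-8776, with a change of -0.995 (adjusted p = 0.189, limma). CD3E, a T cell receptor complex gene, measured 8.44 and 7.83 in DMSO and 6.72 and 6.79 in MK-8776, all above that median. PPBP, a platelet chemokine gene, measured 4.48 and 4.50, then 5.81 and 6.81. CD3E fell by 1.38 (adjusted p = 0.0264) and PPBP rose by 1.82 (adjusted p = 0.0235, limma). Both missed the threshold with the replicate number as a block in the fit (0.0663 and 0.0564). The log2 of the summed level of the 7 was 9.60 and 9.39 in DMSO and 8.95 and 8.62 in MK-8776. The promyelocyte proteases CTSG and PRTN3 fell as well, with changes of -2.20 and -2.005. CTSG measured 8.56 and 8.50 in DMSO and 6.61 and 6.05 in MK-8776. PRTN3 measured 6.79 and 7.85, then 5.22 and 5.41, below the median of all values under MK-8776. AZU1, the remaining promyelocyte marker, read 5.99 and 8.16, then 4.98 and 6.77, a change of -1.20 (adjusted p = 0.434, limma). The part of these markers in the results below was not tested.

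No mitochondrial ribosomal protein gene rose or fell past the threshold of an adjusted p of 0.05. The count was 0 of 74 in the limma fit, beside 652 of 17687 genes, or 3.69%, over the whole table (2.02% lower and 1.66% higher). At an unadjusted p under 0.05 there were 17 lower and 3 higher, which is 23.0% and 4.05% of the 74, beside 10.2% and 8.61% of all genes. The smallest adjusted p among them was 0.0570, for MRPS12. All 74 changes lay between -0.945 and 0.73, so 0 reached 2-fold, and 11 were lower and 1 was higher by at least 1.5-fold. Of all 17687 genes 828 reached 2-fold, and 1640 were lower and 1292 higher by at least 1.5-fold. Of the 8841 genes above the median level of all genes, 1288 were lower and 947 higher by that much.

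The balance leaned to lower values. After MK-8776, 49 of the 74 genes had a lower mean, 23 a higher mean and 2, MRPS14 and MRPL48, the same mean. The median change was -0.13, with quartiles at -0.51 and 0.10, against a median of 0.005 and quartiles of -0.245 and 0.245 over all genes. Both MK-8776 arrays lay below both DMSO arrays in 33 genes (44.6%), beside 24.2% of all genes, and above them in 13 (17.6%), beside 24.0% of all genes. The 74 are well above the array's floor as a set, with 71 above the median level of all genes, and such genes separate more often. Of genes above that level 32.1% lay apart in the lower direction and 27.4% in the higher, and 16.3% and 12.5% had an unadjusted p under 0.05 in these directions. How the arrays are scaled moves this balance. With each array centred on its median, 43 of the 74 were lower, the median change was -0.08, and 11 lower and 6 higher had an unadjusted p under 0.05. With quantile normalization 44 were lower, with 13 lower and 4 higher at that p and a median change of -0.09. With 1 array left out, the 17 lower genes at that p became 12 when DMSO replicate 1 was dropped, 4 for DMSO replicate 2, 3 for MK-8776 replicate 1 and 15 for MK-8776 replicate 2. The 3 higher became 2, 0, 1 and 1 in the same order. Over all genes these fits had 2620, 1815, 2024 and 3017 genes at that p, in place of 3331.

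**Figure D1:**
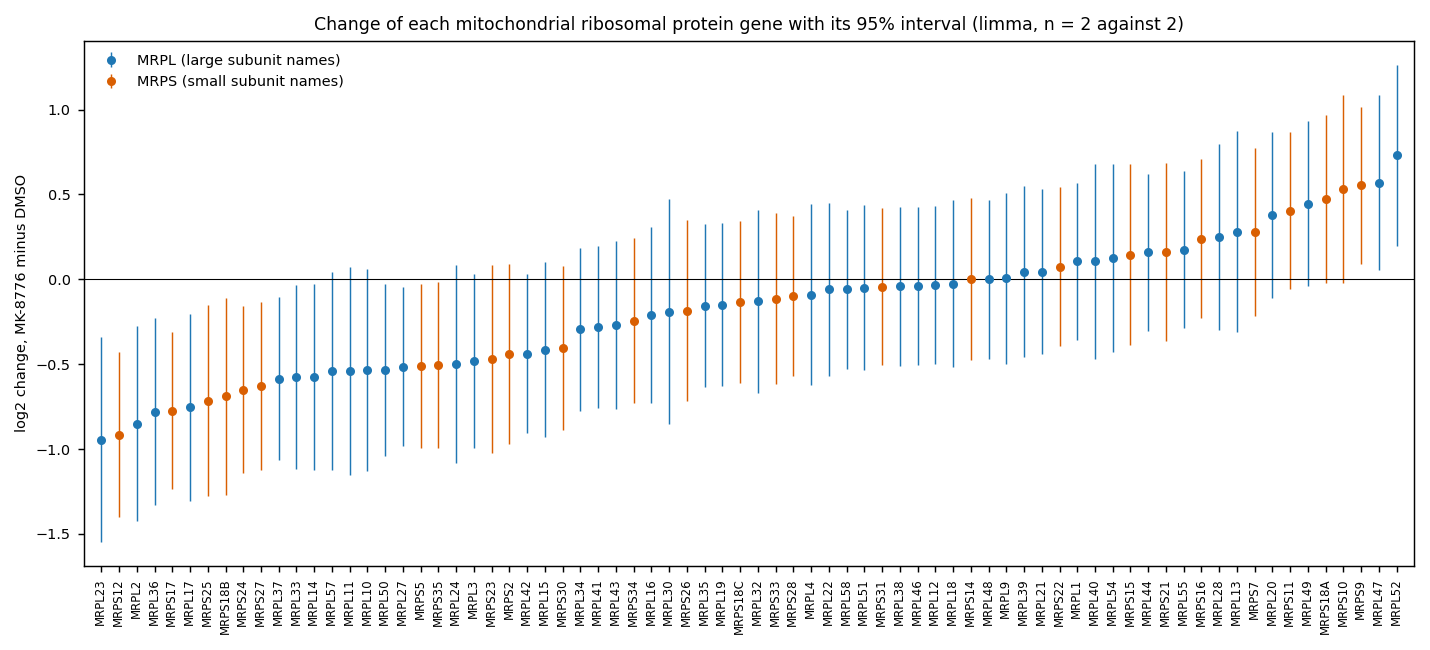
Log2 change (MK-8776 minus DMSO, y axis) of each of the 74 genes, ordered from lowest to highest on the x axis, with points coloured by subunit name and bars for the 95% interval of the limma fit (2 arrays against 2). Changes run from -0.945 for MRPL23 to 0.73 for MRPL52, and both subunits are spread over the whole order.

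The data allow limits to be put on these changes. The 95% interval of a change reached a median of 0.49 to either side. For 51 of the 74 genes the whole interval lay within a 2-fold change in both directions. It reached a 2-fold fall for 19 and a 2-fold rise for 4. Over all 74 the lowest bound was -1.55, for MRPL23, and the highest was 1.26, for MRPL52. The missing calls thus do not show that these genes were unaffected by MK-8776.

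Large and small subunit genes were compared by their medians and counts. The median change was -0.13 (mean -0.175, SD 0.38 over genes) for the 47 MRPL genes and -0.135 (mean -0.173, SD 0.43) for the 27 MRPS genes, a difference between the medians of 0.005. Of the MRPL genes 32 were lower, 14 higher and 1 the same, and of the MRPS genes 17 were lower, 9 higher and 1 the same. Both MK-8776 arrays lay below both DMSO arrays in 21 MRPL genes (44.7%) and in 12 MRPS genes (44.4%), and above them in 7 and 6. Over all genes 24.2% lay apart in the lower direction and 24.0% in the higher, and above the median level 32.1% and 27.4%. At an unadjusted p under 0.05, 9 MRPL (19.1%) and 8 MRPS genes (29.6%) were lower, and 2 and 1 were higher. Lower and higher shares at that p were 10.2% and 8.61% over all genes, and 16.3% and 12.5% above the median level. At least 1.5-fold lower were 5 MRPL and 6 MRPS genes, and at least 1.5-fold higher were 1 and 0. Of all 17687 genes 1640 were lower and 1292 higher by that much, and of the 8841 above the median level 1288 and 947. The differences between the subunits in these counts were not tested. The names and the structure disagree for MRPS18A and MRPS30, whose proteins sit in the large subunit. With these moved there, the medians were -0.13 for 49 genes and -0.135 for 25. By ancestry, the 45 genes listed with a bacterial counterpart had a median of -0.135 and the 29 listed as specific to mitochondria one of -0.115. MRPS18A and MRPS18B were placed with the 29, although their family is related to a bacterial protein.

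The same comparison was made array by array, with each gene's 4-array mean subtracted. For the MRPL genes the median was -0.03 and 0.17 in DMSO replicates 1 and 2 and -0.08 and -0.08 in MK-8776 replicates 1 and 2. The MRPS genes had medians of 0.05 and 0.10 in DMSO and of -0.145 and 0.00 in MK-8776. DMSO replicate 2 was the highest array for both subunits, and DMSO replicate 1 lay between it and the MK-8776 arrays. The difference between the subunits was -0.075 and 0.07 in DMSO and 0.06 and -0.08 in MK-8776, so it changed sign within each group. Its spread within groups (SD 0.10) was larger than the difference of 0.005 between the median changes of the subunits.

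**Figure D2:**
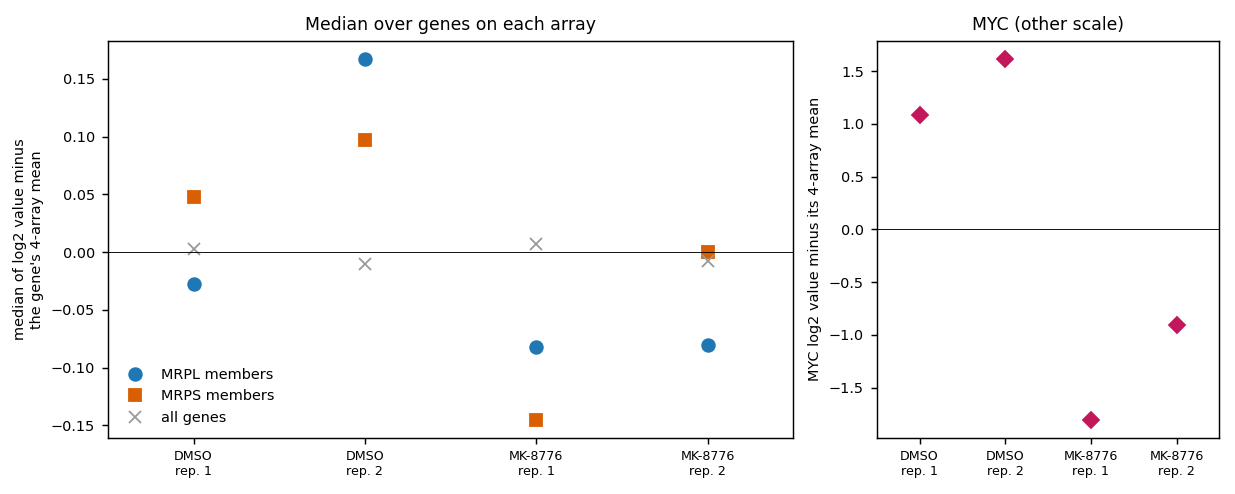
Left, median over genes of the log2 value minus the gene's own 4-array mean (y axis), on each of the 4 arrays (x axis), for MRPL genes, MRPS genes and all genes; right, the same deviation for MYC alone, on a wider scale. The MRPL median runs from -0.08 to 0.17 and the MRPS median from -0.145 to 0.10, whereas MYC runs from -1.80 to 1.62.

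Among the large subunit genes, the lowest changes were in MRPL23, MRPL2, MRPL36 and MRPL17, whose proteins belong to the core shared with bacteria. The next lowest, MRPL37 at -0.585, is mitochondria-specific, and MRPL47, with a bacterial counterpart, was at 0.57. A link with ancestry was not tested. MRPL23, whose protein lines the exit of the tunnel through which the new chain leaves (feature TC1100006547.hg.1, chromosome 11, 1947332 to 2014944, GRCh38), measured 7.13 and 7.73 in DMSO and 6.31 and 6.66 in MK-8776. Both treated arrays lay below both controls. Its change was -0.945 (SE 0.26, adjusted p = 0.0970, limma). MRPL2, which encodes a protein next to the peptide-joining centre (chromosome 6, 43054029 to 43059863), read 10.80 and 11.31 in DMSO and 10.04 and 10.37 in MK-8776, which is a change of -0.85 (SE 0.25, adjusted p = 0.112). The groups were again apart, by less than the DMSO arrays differed from each other. MRPL36 encodes a very small protein of the core. It was at 12.84 and 12.91 in DMSO and at 11.83 and 12.36 in MK-8776, which is a change of -0.78 (SE 0.24, adjusted p = 0.126). MRPL17, for another protein near the tunnel exit, was at 11.89 and 12.02 in DMSO and at 10.94 and 11.46 in MK-8776, which is a change of -0.755 (SE 0.24, adjusted p = 0.136). In both genes the DMSO arrays lay close together and the MK-8776 arrays did not, with replicate 1 the lower. MRPL2 and MRPL36 passed the threshold when the spread was modelled with a trend over level (adjusted p = 0.0442 and 0.0313, limma), as did MRPL17 (0.0472).

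Genes of a shared place in the large subunit are given side by side here, and none of them passed the threshold. Around the tunnel exit, MRPL23, MRPL17, MRPL24 and MRPL22 had changes of -0.945, -0.755, -0.50 and -0.06, while MRPL47, the counterpart of a bacterial protein at the same exit, was at 0.57. The stalk that recruits translation factors is built on MRPL10, MRPL11 and MRPL12. MRPL10 and MRPL11 had changes of -0.535 and -0.54, neither past the threshold (adjusted p = 0.318 and 0.330). MRPL12, which in addition is known to bind the mitochondrial RNA polymerase, stayed close to its control level, at 9.97 and 10.06 in DMSO and at 9.94 and 10.02 in MK-8776. Its change was -0.035, with an interval of -0.50 to 0.43. Mitochondria-specific proteins of the central protuberance include those of MRPL38, MRPL40, MRPL46, MRPL48 and MRPL58, with changes of -0.04, 0.105, -0.04, 0 and -0.06. These groupings by place were chosen after the values were seen, may leave out other genes of the same place, and were not tested.

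At the upper end of the large subunit stood MRPL52, for a mitochondria-specific protein (chromosome 14, 22829887 to 22835037), with 7.87 and 7.49 in DMSO and 8.56 and 8.26 in MK-8776. The groups did not overlap. The change was 0.73 (SE 0.23, adjusted p = 0.138). MRPL47 measured 10.76 and 10.86 in DMSO and 11.18 and 11.58 in MK-8776, which is a change of 0.57 (SE 0.22, adjusted p = 0.220), and MRPL49 measured 9.29 and 9.33, then 9.89 and 9.62, a change of 0.445 (adjusted p = 0.307). In all 3 the treated arrays were both above the controls, and none passed the threshold.

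Among the small subunit genes MRPS12 came nearest to a call. It encodes the counterpart of a bacterial protein at the decoding site, where codon and anticodon are matched (feature TC1900008036.hg.1, chromosome 19, 38930944 to 38933168). It read 6.30 and 6.46 in DMSO and 5.35 and 5.58 in MK-8776, so the groups lay further apart than the arrays within either. Its change was -0.915 (SE 0.21, adjusted p = 0.0570, limma), and its level was below the median of all genes. MRPS17, for a protein of the body of the subunit (chromosome 7, 55951877 to 55956500), had the tightest replicates of the 10 genes with the lowest changes, with 10.31 and 10.25 in DMSO and 9.47 and 9.54 in MK-8776. Its change of -0.775 (SE 0.20, adjusted p = 0.0805) passed with a trend over level (0.0416) and when genes above the median level alone were tested (0.0408).

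MRPS25, mitochondria-specific, measured 9.35 and 9.77 in DMSO and 8.65 and 9.04 in MK-8776, which is a change of -0.715 (SE 0.25). MRPS18B, from a gene family related to a bacterial small subunit protein, measured 12.28 and 12.70, then 11.57 and 12.03, a change of -0.69 (SE 0.25). In both, the lower control was above the higher treated array by less than the spread within a group. MRPS24, whose bacterial counterpart sits where messenger RNA enters, measured 11.23 and 11.53, then 10.68 and 10.78, a change of -0.65 (SE 0.22). MRPS27, an RNA-binding repeat protein gene, measured 11.17 and 11.01, then 10.32 and 10.60, a change of -0.63 (SE 0.22). The adjusted p of these 4 genes lay between 0.151 and 0.187 in the limma fit.

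Other small subunit genes were higher after MK-8776. MRPS9 and MRPS10 encode proteins of the head of the subunit. MRPS9 measured 8.77 and 8.85 in DMSO and 9.38 and 9.35 in MK-8776, which is a change of 0.555 (SE 0.20, adjusted p = 0.185), with close replicates and no overlap. MRPS10 was at 10.17 and 9.64 in DMSO and at 10.51 and 10.36 in MK-8776, which is a change of 0.53 (SE 0.24, adjusted p = 0.286), and here the control arrays differed by as much as the group means. MRPS18A, a relative of MRPS18B, had a change of 0.475 (SE 0.22), from 12.26 and 12.00 to 12.70 and 12.51. The 3 MRPS18 genes thus differed in sign, since MRPS18C was at -0.135, with an interval of -0.61 to 0.34. The differences between them were not tested.

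**Figure D3:**
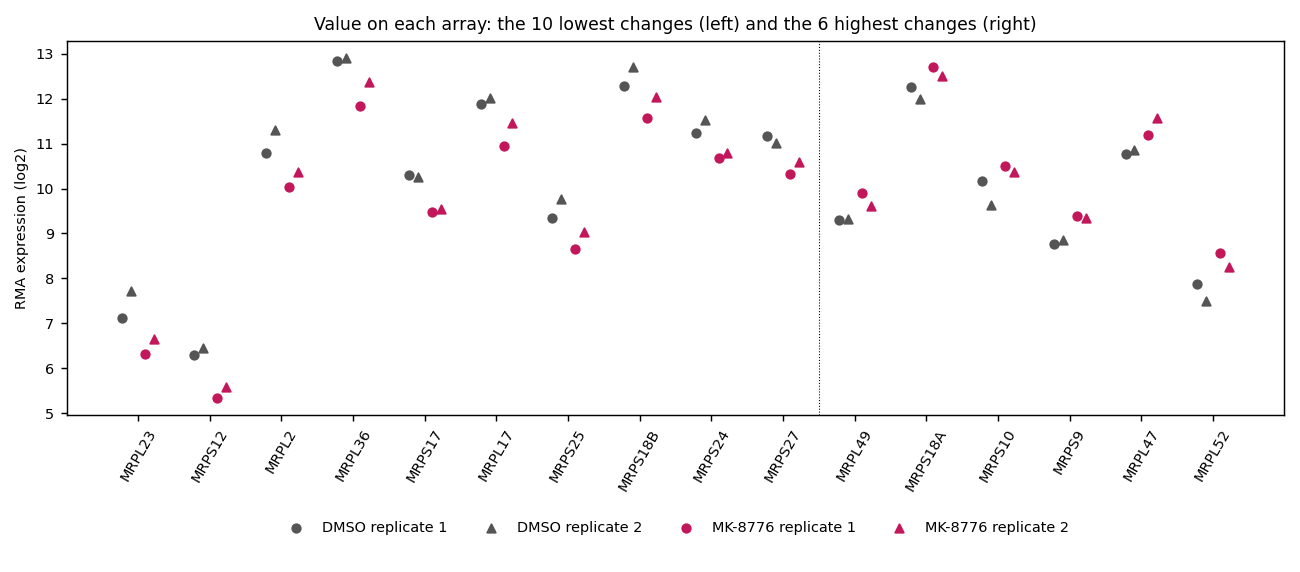
RMA expression (log2, y axis) on each of the 4 arrays for the 10 genes with the lowest changes and the 6 with the highest (x axis), with DMSO in grey and MK-8776 in red, replicate 1 as circles and replicate 2 as triangles. In all 16 genes both MK-8776 points lie on one side of both DMSO points, which picking them by their change on these arrays favours. Of all genes 24.2% lay apart in the lower direction and 24.0% in the higher. None of the 16 passed the threshold. Levels of different genes come from different probes and are not comparable.

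MYC itself fell far more than any of these genes. It measured 12.98 and 13.51 in DMSO and 10.09 and 10.99 in MK-8776, which is a change of -2.71 (SE 0.33, adjusted p = 0.00686, limma), or 6.52-fold lower. Its interval ran from -3.45 to -1.96, below the lowest bound of any of the 74 (-1.55), and the interval of each of the 74 left out the change of MYC. DMSO replicate 2, the array with the highest median of the mitoribosomal genes, also had the highest MYC value, and MK-8776 replicate 1 had the lowest of both. With 4 arrays in 2 groups no correlation across samples was computed. With any 1 array left out, the MYC change lay between -3.155 and -2.255. Its call was lost in these fits, but they leave 1 array in a group and cannot decide whether the call is stable.

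Other MYC targets, taken from a list without mitochondrial translation genes, had a lower median than the mitoribosomal genes, a difference that was not tested. Among the 20 with a value 3 fell, 0 rose and 17 missed the threshold, with a median change of -0.42, and 18 had a lower mean. The 3 were LDHA, for a subunit of lactate dehydrogenase, at -1.36 (adjusted p = 0.0191), NOP16, for a nucleolar protein, at -1.115 (0.0488), and FBL, for the nucleolar methyltransferase fibrillarin, at -1.10 (0.0386, limma). NOP16 missed the threshold after quantile normalization (0.0566), after median centring (0.0509) and with all array features tested (0.0594). With the replicate number as a block in the fit, FBL (0.0618) and NOP16 (0.0613) missed it as well. NCL and CDK4, also on the list, were at -0.005 and 0.03. Of 11 genes of the MYC and MAX network MYC alone fell, and 0 rose. MAX was at 0.28 (adjusted p = 0.540). MXD1 and MXI1 encode proteins that compete with MYC for MAX, and they had changes of opposite sign. MXD1 was at 0.90 (adjusted p = 0.0513), with 10.86 and 10.77 in DMSO and 11.71 and 11.72 in MK-8776. MXI1 was at -0.925 (adjusted p = 0.0514), with 13.25 and 13.45 in DMSO and 12.47 and 12.38 in MK-8776. MNT, for another protein that pairs with MAX, was at -0.69 (adjusted p = 0.136, limma). In this network 1 gene rose with median centring, and 2 fell and 1 rose with a trend over level.

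Promoters were searched, after the values were seen, for CACGTG, the E-box that MYC and MAX can bind, which reads the same on both strands. RefSeq windows (GRCh38.p14) from 250 bases before to 50 after the start site, 1 per gene, were held for 66 of the 74 genes. The motif was in 5 of them (7.58%), beside 1219 of 14009 protein-coding genes tested (8.70%). By subunit it was in 4 of 40 MRPL and 1 of 26 MRPS windows. With every listed window of a gene searched, it was in 8 of the 66 (12.1%), beside 10.8% of all. The 5 genes had changes of -0.78, -0.585, -0.135, -0.06 and 0.445, a median of -0.135, against a median of -0.115 in the 61 without the motif. The 5 matches are shown because CACGTG is the word that MYC and MAX bind, with 30 bases each, 5′ to 3′ on the gene's strand, with the E-box in capitals.
MRPL36: acgtgggcacgcCACGTGaccccccccccc
MRPL37: tgcgcttcacctCACGTGaggattttccag
MRPS18C: aatcataagcctCACGTGacctgccgcgta
MRPL22: ttttcggaagccCACGTGctttcggccttt
MRPL49: cggctCACGTGgggaaggccaggcctccca

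These E-boxes begin 56 bases upstream of the start for MRPL36 (chr5:1799876-1799905, minus strand), 170 for MRPL37 (chr1:54199985-54200014, plus strand) and 179 for MRPS18C (chr4:83455867-83455896, plus strand). For MRPL22 (chr5:154940885-154940914, plus strand) and MRPL49 (chr11:65121933-65121962, plus strand) they begin 176 and 245 bases upstream. MRPL36 is annotated from 1798385 to 1801434, so its window lies inside the longer form of the gene. MRPL37, for a mitochondria-specific large subunit protein, measured 12.93 and 12.77 in DMSO and 12.18 and 12.35 in MK-8776, apart by more than either spread (change -0.585, adjusted p = 0.176, limma). MRPL22 measured 7.88 and 8.27, then 8.04 and 7.99, with full overlap. A match describes the letters only, and binding of MYC was not measured.

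The genes that build and serve the mitochondrial ribosome gave few calls. Of 23 measured genes of its assembly and RNA modification, RPUSD4, for a pseudouridine synthase acting on the large ribosomal RNA, fell by 1.175 (adjusted p = 0.0339, and 0.0562 with the replicate block), 0 rose and 22 did not pass. RPUSD4 measured 9.92 and 10.24 in DMSO and 8.73 and 9.08 in MK-8776. The median of the list was -0.235, and 18 of the 23 were lower. Of 13 translation factors and helpers 0 passed in the limma fit, with 3 lower and 2 higher at an unadjusted p under 0.05. MTIF2, for the initiation factor that brings the starting transfer RNA, was at -0.87 (adjusted p = 0.0894), and MTRF1L, for a release factor, was at 0.775 (adjusted p = 0.132). Mitoribosomal proteins with other symbols, DAP3, CHCHD1, PTCD3 and GADD45GIP1, gave 0 calls (0 at an unadjusted p under 0.05), with changes between -0.275 for PTCD3 and 0.155 for CHCHD1.

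Of 15 genes that copy and transcribe mitochondrial DNA, 2 fell, 0 rose and 13 did not pass, with a median of -0.185 (-0.29 without DMSO replicate 1). TWNK, the helicase gene of mitochondrial DNA replication, read 9.97 and 9.98 in DMSO and 8.67 and 9.01 in MK-8776, a change of -1.135 (adjusted p = 0.0310, and 0.0670 with the replicate block). POLG2, for the accessory subunit of the mitochondrial DNA polymerase, read 8.80 and 9.36, then 7.59 and 8.06, a change of -1.255 (adjusted p = 0.0439, 0.0528 when quantile normalized and 0.0540 with the unnamed features included). TFAM, which packages mitochondrial DNA and opens its promoters, had a change of 0.065 and overlapping groups. Of 14 genes of protein import and the outer membrane 0 passed in the limma fit (4 lower and 0 higher at an unadjusted p under 0.05). The most changed were TIMM44, an import motor gene, at -0.975 (adjusted p = 0.0591) and TOMM20, an import receptor gene, at -0.70 (adjusted p = 0.133). The calls in these lists and among the MYC targets were all lost when any 1 array was left out, where the fit called 0 to 34 of the 17687 genes.

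Medians of related gene families moved with the arrays used. Of 52 cytosolic ribosomal protein genes, which include a few paralogs, 45 were lower, with a median of -0.16 and quartiles of -0.24 and -0.03. Dropping MK-8776 replicate 1 gave a median of -0.08, and dropping DMSO replicate 2 gave -0.0975. The single call was RPL39L, a paralog of low level, at -1.50 (adjusted p = 0.0224, limma), and with the replicate block 0 of the 52 were called. For subunits of oxidative phosphorylation 70 nuclear genes were measured, whose partners, outside complex II, the mitochondrial ribosome makes. Of these 70, 40 were lower and 29 higher, and 0 passed in the limma fit (4 lower and 2 higher at an unadjusted p under 0.05). Their median was -0.12 (0 and -0.03 when DMSO replicate 2 or MK-8776 replicate 1 was dropped, -0.20 when DMSO replicate 1 was). The most changed were NDUFA10, for a subunit of complex I, at -0.81 (adjusted p = 0.135), and UQCRH, for a subunit of complex III, at -0.695 (adjusted p = 0.171, limma). The mitoribosomal genes had the widest spread of the 3 families, with an SD over genes of 0.39 against 0.27 and 0.32. All genes spread more widely (SD 0.49), as did all genes above the median level (SD 0.61). Differences between the families were not tested.

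**Figure D4:**
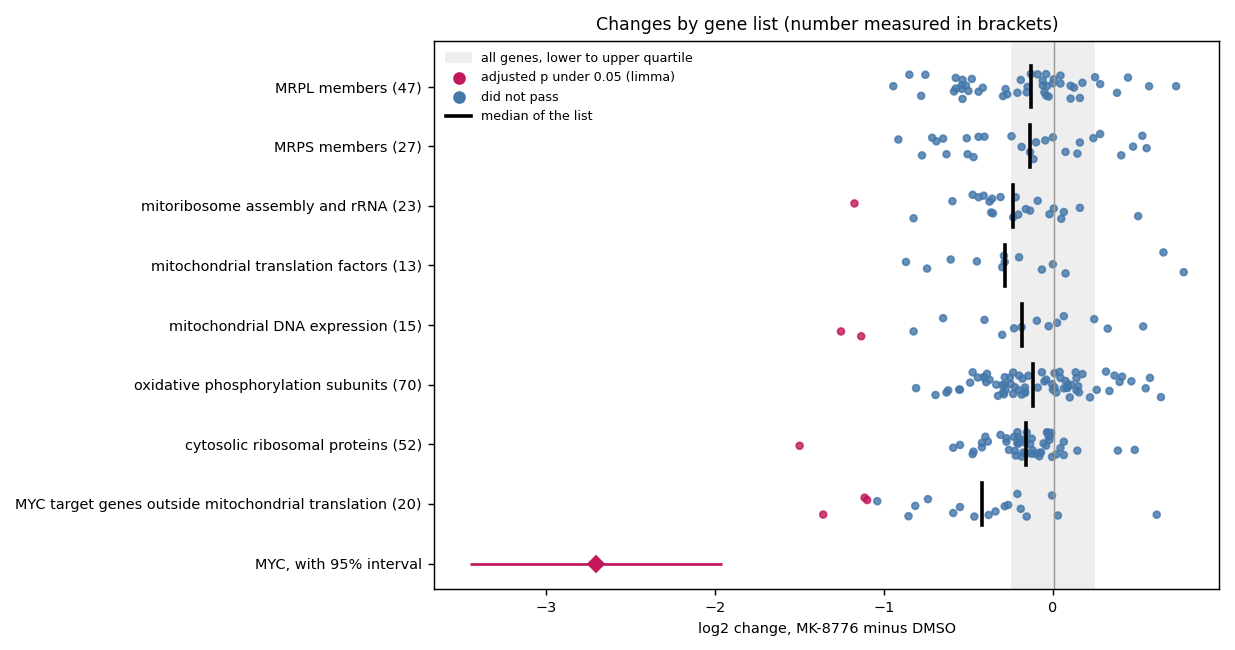
Log2 change (MK-8776 minus DMSO, x axis) of each gene in 8 lists and of MYC with its 95% interval (y axis), with red points past an adjusted p of 0.05, a black bar at each list's median and grey shading from the lower to the upper quartile of all genes. The medians of the MRPL and MRPS genes, at -0.13 and -0.135, lie inside the shading, that of the MYC targets at -0.42 lies outside it, and MYC stands at -2.71.

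Several of these genes share a promoter region with a neighbour. A start site within 1000 bases of that of a protein-coding gene on the opposite strand, pointing away from it, was found for 18 of the 66 genes with a window (27.3%), beside 10.7% of 14009 protein-coding genes. Starts that overlapped by up to 100 bases were included. Partners were measured for 15 of the 18, and 5 of these 15 pairs had changes of the same sign. MRPS12 and SARS2, which encodes the mitochondrial seryl-tRNA synthetase, start 181 bases apart. SARS2 measured 7.05 and 7.36 in DMSO and 7.33 and 7.15 in MK-8776, which is a change of 0.035 (SE 0.22), beside -0.915 for MRPS12. MRPL51 had a change of -0.05, while its partner NCAPD2, a condensin subunit gene with its start 840 bases away, fell by 1.75 (adjusted p = 0.00627, limma). MRPL46 and MRPS11 are partners of each other, so that they count as 2 of the 15, with changes of -0.04 and 0.405 and starts 320 bases apart. MRPL57 and SKA3, a kinetochore gene, had changes of -0.54 and -0.775, and MRPL27 and EME1, a repair nuclease gene, of -0.515 and -0.59, none of the 4 past the threshold. The differences within pairs were not tested, and the pairing was examined after the values were seen.

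The other genes filled the range between these examples. Below -0.40 lay 17 further genes that are not among the 10 lowest, from MRPL37 at -0.585 to MRPS30 at -0.405. All 17 had both MK-8776 arrays below both DMSO arrays, as did 24.2% of all genes. Picking genes by their change on these same arrays favours such a separation. MRPS35 and MRPL42, at 13.48 and 13.54 and at 13.60 and 13.50 in DMSO, then 12.86 and 13.15 and 13.05 and 13.17 in MK-8776, had changes of -0.505 and -0.44. MRPL3, for a core protein near the peptide-joining centre, was at -0.48. A middle group of 35 genes had changes between -0.30 and 0.20, among them MRPL41, MRPL4 and MRPL1, and 6 of these were apart in the lower direction and 3 in the higher. Above 0.20 and outside the 6 highest lay 6 genes, from MRPS16 at 0.24 to MRPS11 at 0.405. MRPS7, MRPS11 and MRPS16, all with bacterial counterparts in the small subunit, and MRPL20 had treated arrays above both controls, whereas the groups overlapped for MRPL28 and MRPL13.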

How the data were processed

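The authors deposited log2 expression for each array feature, made with RMA and genome build hg38, per the submitters' processing notes. RMA corrects background, normalizes arrays to each other and summarises probes, so changes are relative to other genes and a change in total RNA would not be seen. Sources used here give no version or settings of RMA, and the log2 scale was taken from the values (2.16 to 18.54, array medians 5.76 to 5.79). No scan date or detection call was used, and the number of arrays limits the precision.

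The platform annotation gave 1 symbol for 17709 of 21448 features, several for 0 and none for 3739. All 17709 were found by gene number in RefSeq's table (GRCh38.p14), from which coordinates, counted from 1, were taken. The feature with the highest mean was kept for 20 genes with several, none of them mitoribosomal. The 17687 genes entered a two-sided test in limma 3.58.1 (R 4.3.3), by eBayes after lmFit with dim features kept, with Benjamini-Hochberg adjustment over all of them. With 2 arrays against 2 the smallest exact permutation p is 0.333. The fit was tested on simulated data.

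Named are the 10 lowest and 6 highest changes, MYC, and up to 4 called genes, or the 2 largest changes, of each other list. Other genes were named after their values were seen. The mitoribosomal genes and lists were chosen with earlier results of these data known, and gene lists were described by counts and medians without a test.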

Additional observations from a re-analysis of the deposited data

How the results depend on the processing

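With 2 arrays per group, the number of arrays limits the precision. The count of mitoribosomal genes past the threshold was 0, and it stayed 0 under quantile normalization, median centring, the replicate block, all features and averaged features. With 1 array left out it was 0 as well (0 to 0), but these fits called 0 to 34 of all 17687 genes, so they do not bear on its stability. It was 4 with a variance trend, 3 with a robust trend, 1 of 71 among genes above the median level and 20 at an unadjusted p. The fits with a trend, a robust trend and the level filter called 6.70%, 6.57% and 11.1% of genes, against 3.69% as reported. The 4 genes called with a trend were MRPL17, MRPL2, MRPL36 and MRPS17, all falls. Those called with the robust trend and the level filter were among these 4.

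The median change stayed below 0 under all alternatives run, from -0.165 without DMSO replicate 1 to -0.0825 with median centring, and was -0.1325 with the replicate block. Large minus small was 0.005 with the replicate block and ran from -0.105 to 0.075 over left-out arrays, with the low end without MK-8776 replicate 1; the cause was not tested. The MYC change ran from -3.155 to -2.255 over left-out arrays. Its call was lost there, in fits that leave 1 array in a group and cannot decide whether it is stable. MYC kept the call at adjusted p = 0.0223 with the replicate block (limma).

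The replicate numbers are tied to no shared culture in the labels. Deviations of same-numbered arrays correlated at 0.14 over all genes, and the block lowered the calls from 652 to 309. Calls among MYC targets ranged from 1 with the block to 6 with a trend, among mitochondrial DNA genes from 1 to 3 falls, among import genes from 0 to 2, among marker genes from 2 falls and 0 rises with the block to 4 falls and 1 rise with a trend, and among cytosolic ribosomal genes from 0 to 5 (arrays left out not counted).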
